A study of Mus musculus with 225 samples.

Results

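*Prdm16*, *Mecom* and *Itm2a* were followed in single cells of the developing mouse forelimb. All 3 were among the 23165 genes counted and the 10948 genes of the normalized table. They were chosen by their measured values: *Prdm16* and *Itm2a* were picked from among the genes with the greatest contrast between the autopod (the future hand) and the zeugopod (the future forearm), and *Mecom*, a close relative of *Prdm16*, was taken with them. The contrast between the tissues is therefore given as a description, with no test.

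The cells came from forelimbs micro-dissected at embryonic day 12.5 from *Hoxd11::GFP* heterozygous embryos on a mixed C57Bl6CBAF1 background. In every cell of both tissues, 1 copy of *Hoxd11* thus carried a tau-GFP reporter and was not functional. Only the brightest GFP cells were sorted and captured on a C1 microfluidic chip. The authors retained 199 cells. Of 96 captured autopod cells 76 were kept, 59 of 69 in sequencing run NXT0072 and 17 of 27 in run NXT0143. Of the zeugopod cells 58 of 60 were kept in run NXT0142 and 65 of 69 in run NXT0143. Embryos had been pooled, so each tissue is 1 sample, cells are not replicates, and intervals cover counting error only. Reads on genes per retained autopod cell ran from 187344 to 9437447, with a median of 2830024.5 and a median of 3684 genes detected. In the zeugopod they ran from 186271 to 6801278, with a median of 3233736 reads and 3995 genes.

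*Prdm16* and *Mecom* (also known as *Evi1*) encode zinc finger proteins with a PR domain, a relative of the SET domain of histone methyltransferases. Both bind CtBP corepressors. PRDM16 is known for directing the brown fat fate and for its part in craniofacial, neural and blood stem cell development, and MECOM for maintaining blood stem cells. *Itm2a* encodes a type II membrane protein with a BRICHOS domain, found early in cartilage and muscle differentiation and in activated T cells.

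The tissue labels were first set against known regional genes. *Hoxd13*, a regulator of digit formation, had at least 5 reads in 65 of 76 autopod cells and in 1 zeugopod cell. *Shox2*, needed for the proximal skeleton, had them in 0 of 76 autopod cells (3 counts of the total, the limit taken for a count of 0, are 3.95%, and the exact 95% interval reaches 4.74%) and in 73 zeugopod cells (59.3%). These genes therefore followed the labels, *Hoxd13* less fully in NXT0143 (11 of 17 autopod cells) than in NXT0072 (54 of 59). *Hoxd11* itself, whose locus drove the sort, was read in 67 autopod and 98 zeugopod cells.

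The promoters of *Prdm16* and *Mecom* are shown because these relatives were both higher in the autopod, and that of *Itm2a* because it went the other way. All are on the minus strand of GRCm38.p6, from RefSeq, and run from upstream of the annotated start into the first exon: *Prdm16* at chr4:154636824-154637123, *Mecom* at chr3:30509710-30510009 and *Itm2a* at chrX:107403311-107403610. Capitals mark the longest run of bases that the *Prdm16* and *Mecom* windows share.
Prdm16: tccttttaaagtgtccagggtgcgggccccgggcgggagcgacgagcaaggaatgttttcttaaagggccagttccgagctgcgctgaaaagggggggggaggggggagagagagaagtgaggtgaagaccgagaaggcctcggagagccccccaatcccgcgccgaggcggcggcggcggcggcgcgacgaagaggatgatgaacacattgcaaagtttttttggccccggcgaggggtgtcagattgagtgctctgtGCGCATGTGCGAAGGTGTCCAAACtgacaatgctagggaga
Mecom: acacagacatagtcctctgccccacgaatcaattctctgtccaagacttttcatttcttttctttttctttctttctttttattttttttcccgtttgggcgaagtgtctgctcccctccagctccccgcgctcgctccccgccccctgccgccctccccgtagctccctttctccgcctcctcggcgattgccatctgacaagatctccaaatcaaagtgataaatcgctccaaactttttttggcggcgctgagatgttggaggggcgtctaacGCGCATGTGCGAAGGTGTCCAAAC
Itm2a: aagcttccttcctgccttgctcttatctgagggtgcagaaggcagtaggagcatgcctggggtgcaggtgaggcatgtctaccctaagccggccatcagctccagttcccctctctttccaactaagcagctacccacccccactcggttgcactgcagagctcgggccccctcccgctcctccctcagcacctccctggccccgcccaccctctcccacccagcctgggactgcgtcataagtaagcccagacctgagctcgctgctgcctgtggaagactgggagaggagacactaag
The shared run is 24 bases long, at positions 260 to 283 of the *Prdm16* window and 277 to 300 of the *Mecom* window. In *Prdm16* it lies downstream of the annotated gene start at 154636873, in the transcribed part. In *Mecom* it ends at the last base of the window, so a longer match could not be seen. The run was defined from these 2 windows, which therefore had to hold it. No other of 32851 promoter windows of this length, searched on both strands, did so. Runs shared by other pairs of related genes were not measured, and a role of the run in expression was not tested. The longest run shared by *Prdm16* and *Itm2a* was 8 bases. The printed *Mecom* window lies inside the gene as annotated, as does a second RefSeq start of *Mecom*, which did not hold the run. The windows also differed in CpG content: the ratio of observed to expected CpG was 0.939 for *Prdm16* and 1.02 for *Mecom*, and 0.253 for *Itm2a*, beside a median of 0.384 over all windows. Motifs were chosen after the windows had been seen. The GC box CCGCCC, searched on both strands, was found 1 time in *Prdm16*, 2 times in *Mecom* and 1 time in *Itm2a*, and in 35.7% of all windows. Neither CAATAAA, a motif known for HOX13 proteins, nor TATAAA was found in the 3 windows. They are present in 4.60% and 13.6% of all windows.

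*Prdm16* was read in a larger share of autopod than of zeugopod cells. A cell was counted as having a gene when it held at least 5 of its reads. This was so in 70 of 76 autopod cells (92.1%, exact 95% binomial interval 83.6 to 97.05) and in 64 zeugopod cells, with 59 below it (52.03%, 42.8 to 61.1). The zeugopod share depended on depth, and was 30.3% after thinning every cell to 500000 reads on genes. By run, the autopod shares were 89.8% in NXT0072 and 100% in NXT0143, and the zeugopod shares 55.2% in NXT0142 and 49.2% in NXT0143. Both autopod runs lay above both zeugopod runs.

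The level of *Prdm16* differed as well as the share. The normalized value is the read count scaled by spike-in RNA and cut to a whole number, plus 1, per kilobase of gene length. The spike-in totals under the cell names did not follow that scaling, as described with the processing below. In autopod cells it ran from 0.108, the lowest value it can take, through a median of 24.97 to 4120. In zeugopod cells it ran from 0.108 through a median of 0.542 to 565. The ranges overlapped over much of their length. By run the medians were 22.5 and 47.8 in the autopod (NXT0072, NXT0143) and 0.758 and 0.433 in the zeugopod (NXT0142, NXT0143). The mean of log2(normalized value + 1) was 5.07 ± 2.94 (SD over 76 cells) in the autopod and 1.78 ± 2.34 (SD over all its cells) in the zeugopod, a difference of 3.29. It was 4.24 within NXT0143, the only run with both tissues, and 2.96 between NXT0072 and NXT0142.

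Cells that did have *Prdm16* also carried less of it in the zeugopod. Among positive cells the median normalized value was 33.7 in the autopod and 4.98 in the zeugopod, and of 64 positive zeugopod cells 14 exceeded the autopod median. The interquartile range was 12.8 to 142 in autopod and 1.25 to 27.9 in zeugopod cells. The ratio of these medians, autopod over zeugopod, was 6.77 in all cells, 9.59 within NXT0143 and 6.70 between the other runs. In CPM, the reads of a gene scaled to the total of reads on genes in the cell, which uses no spike-in, the ratio was 7.15.

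*Mecom* showed the same direction. It had at least 5 reads in 67 of 76 autopod cells (88.2%, 78.7 to 94.4) and in 69 zeugopod cells, with 54 below it (56.1%, 46.9 to 65.03). By run the shares were 86.4% and 94.1% in the autopod (NXT0072, NXT0143) and 58.6% and 53.8% in the zeugopod (NXT0142, NXT0143). As for *Prdm16*, both autopod runs lay above both zeugopod runs. Normalized values ran from 0.0808 through a median of 67.2 to 3536 in autopod cells and from 0.0808 through 0.970 to 915 in zeugopod cells. The mean log2 levels were 5.58 ± 3.42 (SD over 76 cells) and 3.27 ± 3.56 (SD over zeugopod cells), a difference of 2.32, with 3.39 within NXT0143 and 1.55 between the other runs.

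In positive cells the order of the *Mecom* medians depended on the run and on the scale. The median normalized value in positive cells was 75.7 in the autopod and 71.8 in the zeugopod. It was 78.6 against 35.3 within NXT0143, and 75.7 against 187 between NXT0072 and NXT0142. In CPM the medians of all positive cells were 368 in the autopod and 442 in the zeugopod, with 344 against 220 within NXT0143 and 392 against 546 between the other runs. On the normalized scale, which is per length, positive zeugopod cells held more *Mecom* than *Prdm16* (medians 71.8 and 4.98).

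*Itm2a* went the other way. It had at least 5 reads in 25 of 76 autopod cells (32.9%, 22.5 to 44.6) and in 98 zeugopod cells, with 25 below it (79.7%, 71.5 to 86.4). By run the shares were 28.8% and 47.1% in the autopod (NXT0072, NXT0143) and 74.1% and 84.6% in the zeugopod (NXT0142, NXT0143). Both zeugopod runs lay above both autopod runs, while the interval of the 17 autopod cells of NXT0143, 22.98 to 72.2, reached into that of the zeugopod cells of NXT0142. Autopod values ran from 0.571, the lowest possible value, which was also the median, to 12623. Zeugopod values ran from 0.571 through a median of 825 to 24098. Mean log2 levels were 3.58 ± 4.45 (SD over 76 cells) in the autopod and 8.17 ± 4.33 (SD over all its cells) in the zeugopod. The difference of autopod minus zeugopod was -4.59, with -4.17 within NXT0143 and -4.28 between the other runs.

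In positive cells the *Itm2a* medians were closer than those of all cells. They were 1279 in 25 autopod cells and 1461 in 98 zeugopod cells. Mean log2 levels in these cells differed by -0.69 (autopod minus zeugopod), and by -1.27 within NXT0143. Of the positive cells 12 of the 25 in the autopod exceeded the zeugopod median. The interquartile ranges were 154 to 3355 and 468 to 3584. The ratio of the medians, zeugopod over autopod, was 1.14, with 1.35 within NXT0143 and 1.09 between the other runs. In CPM the within-run ratio was larger, 2.05 in NXT0143, where the autopod had 8 positive cells. Cells with 1 to 4 reads were few for each gene beside the retained cells, at most 13 in a tissue, though for *Mecom* in the autopod they were 6 of the 9 cells counted as without it.

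**Figure D1:**
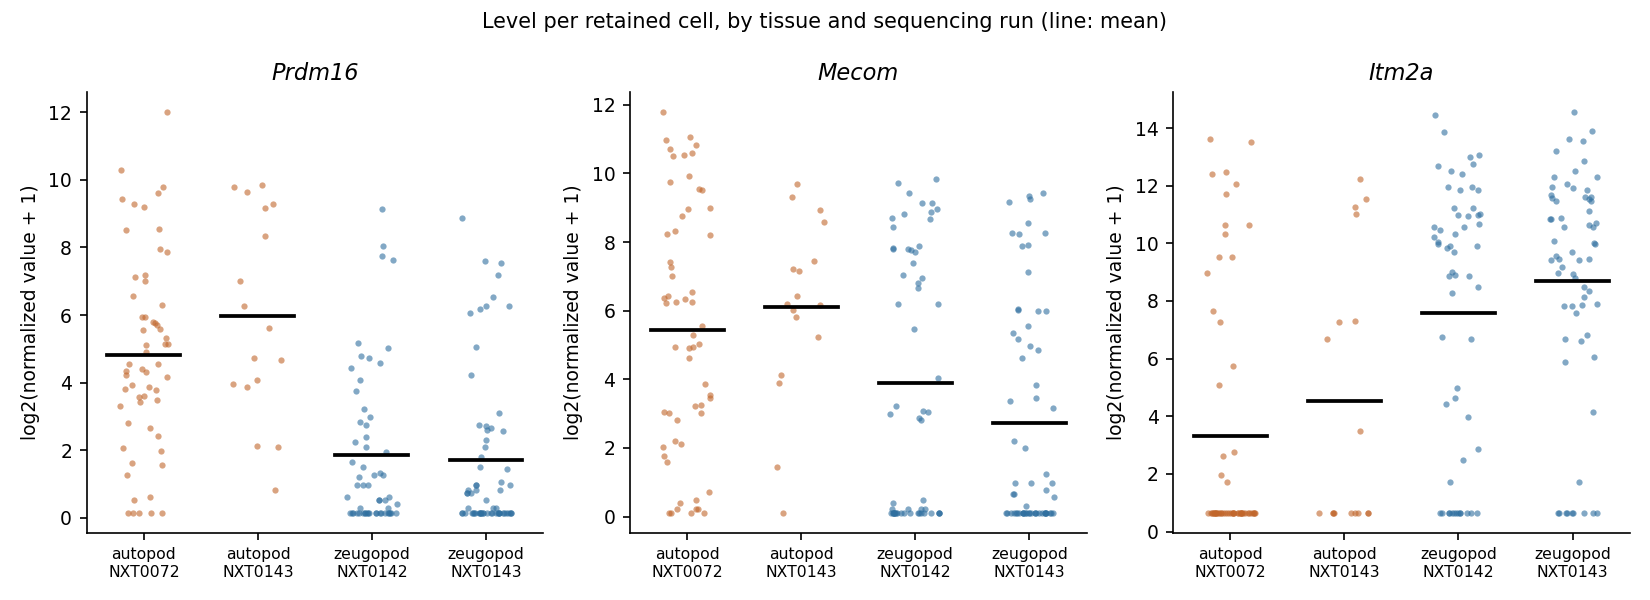
Level of each gene per retained cell as log2(normalized value + 1), by tissue (autopod orange, zeugopod blue) and sequencing run; each point is a cell and the line is the mean. *Prdm16* and *Mecom* means lie higher in both autopod runs than in either zeugopod run, and *Itm2a* means lie lower. Only NXT0143 holds both tissues. Cells of both tissues lie along most of the range.

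**Figure D2:**
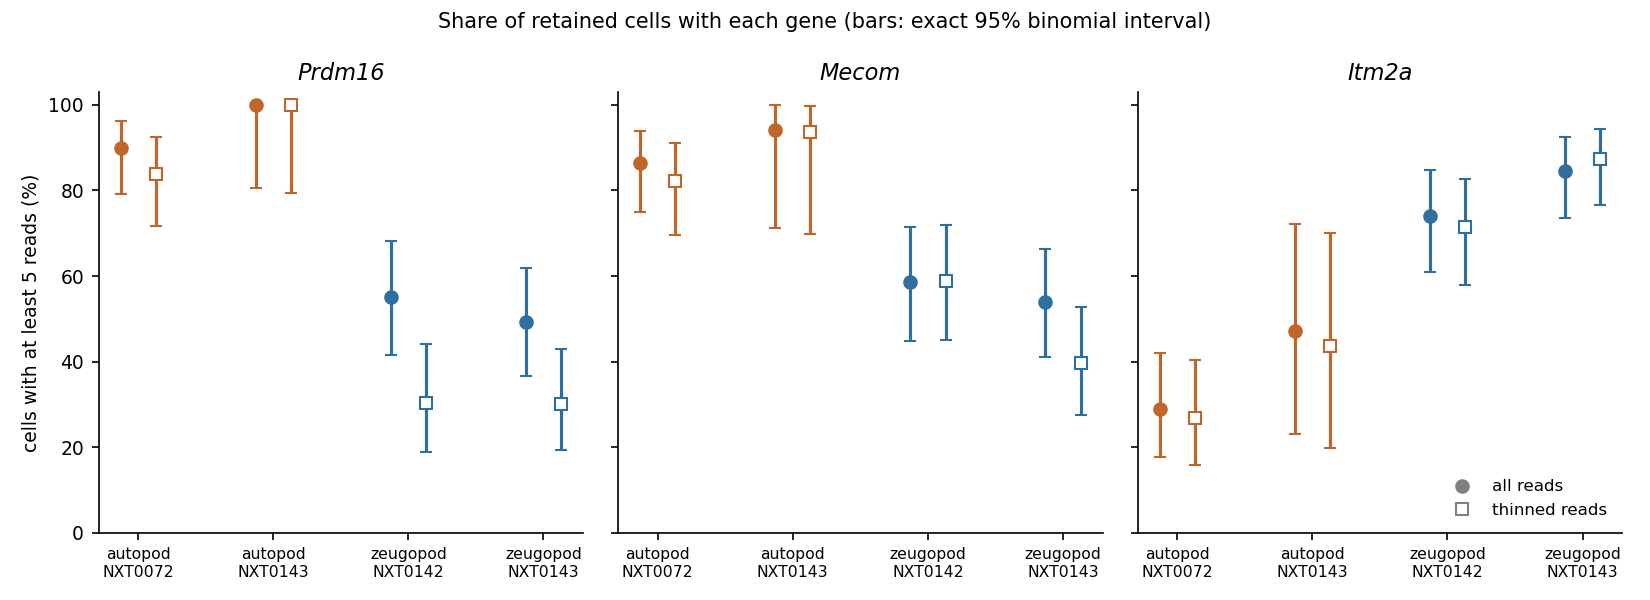
Percent of retained cells with at least 5 reads of each gene by tissue and run, from all reads (filled circles) and after thinning every cell to 500000 reads on genes (open squares); bars are exact 95% binomial intervals. *Prdm16* in the zeugopod falls from 52.03% over all cells to 30.3% after thinning, and *Itm2a* there is at 79.7% and 79.8%.

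**Figure D3:**
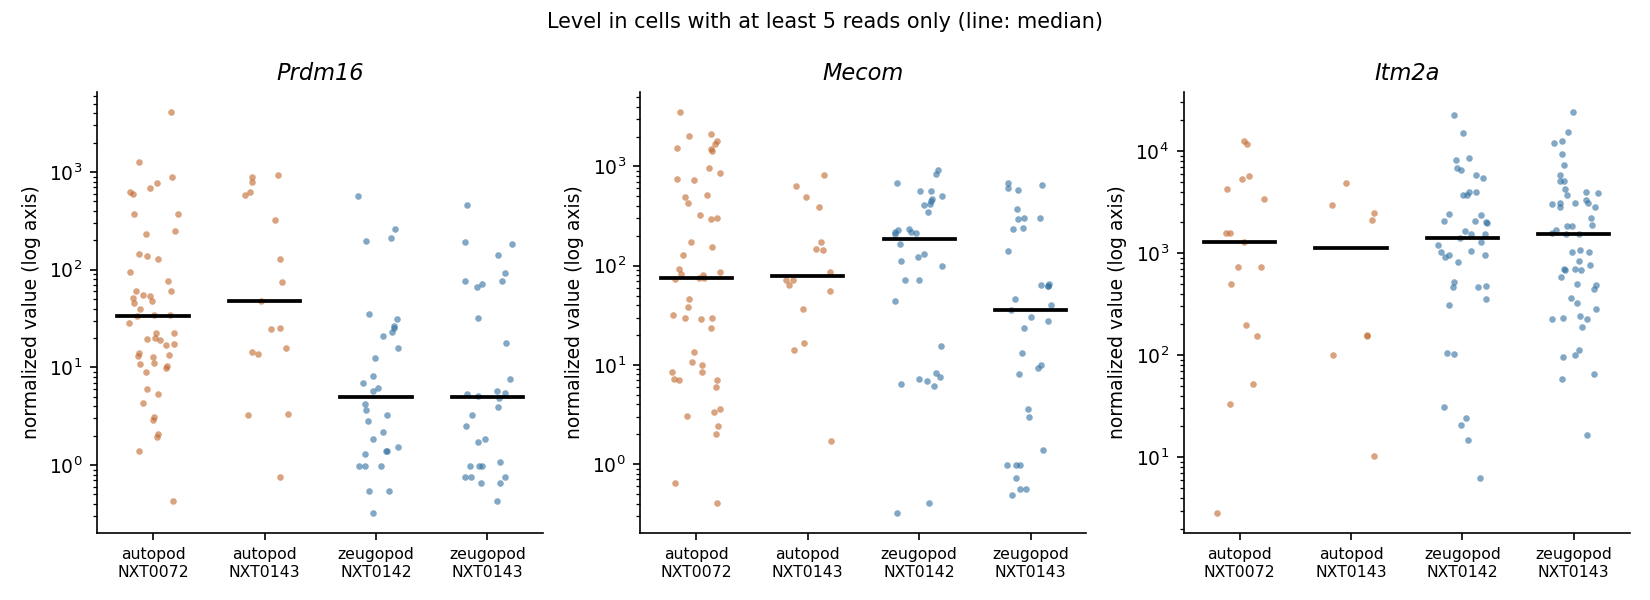
Normalized value, on a log axis, in cells with at least 5 reads of the gene only, by tissue and run; lines are medians. The *Prdm16* medians are higher in both autopod runs, the 4 *Itm2a* medians lie between 1127 and 1527, and the *Mecom* medians change order between runs.

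Depth entered the *Prdm16* share in the zeugopod. After thinning every cell to 500000 reads on genes, which left out 4 autopod and 4 zeugopod cells as too shallow, *Prdm16* had at least 5 reads in 87.5% of 72 autopod cells and in 30.3% of the zeugopod cells left. The thinned shares were 84.7% and 48.7% for *Mecom*, and 30.6% and 79.8% for *Itm2a*. The order of the tissues was as before for all 3 genes, and the *Prdm16* contrast was wider. Autopod cells without *Prdm16* had fewer genes detected (median 2440 in 6 cells) than those with it (3712.5), and those without *Mecom* likewise (2916 in 9 cells against 3805). In the zeugopod the medians were 4103 without and 3920.5 with *Prdm16*. The part of cell quality in the missing autopod cells was not tested.

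Pooled reads were held by few cells. In the autopod 5 cells held most of the *Prdm16* reads, 6 most of the *Mecom* reads and 3 most of the *Itm2a* reads. Pooled CPM of *Prdm16* was 437 in the autopod (exact 95% Poisson interval 435 to 440) and 67.003 in the zeugopod (66.2 to 67.8), a 6.53-fold difference. For *Mecom* it was 785 (781 to 789) against 532 (529 to 534), 1.48-fold. For *Itm2a* it was 438 (436 to 441) against 1362 (1358 to 1365), 3.11-fold higher in the zeugopod. These Poisson intervals treat reads as independent, though the reads are amplified copies without molecular identifiers, so they are too narrow. The folds within NXT0143 and between the other runs were 6.45 and 7.28 for *Prdm16*, 1.49 and 1.42 for *Mecom*, and 5.51 and 2.31 for *Itm2a*. Without the cell with the most reads in each tissue, an alternative chosen after seeing the data, the folds over all runs were 6.27, 1.39 and 3.48. Pooled CPM was then 367, 642 and 366 in the autopod and 58.5, 462 and 1273 in the zeugopod, all outside those intervals. Within NXT0143 the *Mecom* fold was then 1.28. There the autopod cell with the most *Mecom* reads held 41.3% of those of the autopod. Leaving out that cell alone gave 485 CPM in the autopod against 497 in the zeugopod, which turned the order.

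Against all genes, *Prdm16* and *Mecom* were among 96 genes (1.96% of 4898) that were higher in the autopod by at least 1 log2 unit in all cells and in both run comparisons. *Itm2a* was among 190 genes (3.88%) higher in the zeugopod by the same rule. The 4898 genes reached 5 reads in 25% or more of autopod or of zeugopod cells. In CPM these counts were 92 and 305, a larger part of them on the zeugopod side. The choice of the genes used this contrast, so nothing is read from their place. The median difference over all 4898 genes was -0.12, and -0.29 in CPM; relative to it *Prdm16* differed by 3.41, *Mecom* by 2.43 and *Itm2a* by -4.47. In the order of the difference, over 2470 genes with a single direction in both run comparisons, the genes just above *Prdm16* were *Msx1* (4.95), *Id2* (4.42) and *Id1* (3.83). Those just below it were *Lhx9* (3.16), *Sox9* (3.14) and *Msx2* (2.97). *Itm2a* stood between *Mest* (-4.88) on the zeugopod side and *Col1a1* (-4.39), *Pdia3* (-4.39) and *Shox2* (-4.29) on the other.

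The genes were not mutually exclusive. In the autopod, 21 of 76 cells had all 3 genes, 41 had *Prdm16* and *Mecom* without *Itm2a*, and each of the 25 cells with *Itm2a* also had *Prdm16*. In the zeugopod, 38 cells had all 3 (30.9%), 30 had *Itm2a* alone and 7 had none. The largest class of autopod cells thus lacked *Itm2a*, and the largest class of zeugopod cells had every gene. By run, the zeugopod cells with all 3 and with *Itm2a* alone were 20 and 12 of 58 in NXT0142, and 18 and 18 of 65 in NXT0143.

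*Prdm16* and *Mecom* occurred together in the zeugopod. There *Prdm16* was read in 47 of 69 cells with *Mecom* (68.1%) and in 17 of 54 without it (31.5%). The shares were 73.5% and 29.2% in NXT0142 and 62.9% and 33.3% in NXT0143. Spearman's rho between their normalized values was 0.433 over zeugopod cells, and 0.439 when the number of genes detected per cell was allowed for. In the autopod the same values were 0.296 and 0.112 over 76 cells. These cells share a tissue pool. After thinning, the adjusted value was 0.290 in the zeugopod and 0.0453 in the autopod. The rho of *Itm2a*, unadjusted, was 0.146 with *Prdm16* and 0.0311 with *Mecom* in the zeugopod.

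Within the zeugopod, all 3 genes were read more often in cells with cartilage markers. Chondrogenic cells were those with at least 5 reads of at least 3 of *Sox9*, *Col2a1*, *Acan*, *Col9a1* and *Matn1*. *Prdm16* was read in 29 of 38 such cells (76.3%, 59.8 to 88.6) and in 35 of the 85 others (41.2%, 30.6 to 52.4). *Mecom* was read in 30 of 38 (78.9%, 62.7 to 90.4) and 39 of 85 (45.9%, 35.02 to 57.04). Both runs had this order, 78.9% against 43.6% and 73.7% against 39.1% for *Prdm16*, and 89.5% against 43.6% and 68.4% against 47.8% for *Mecom* (NXT0142, then NXT0143). Within runs the intervals overlapped, except for *Mecom* in NXT0142. *Itm2a* had the same order, in 34 of 38 (89.5%, 75.2 to 97.06) and 64 of 85 (75.3%, 64.7 to 84.01), with overlapping intervals, and in both runs (89.5% against 66.7%, and 89.5% against 82.6%). Its mean log2 level was 9.74 against 7.47. The 2 groups of zeugopod cells had similar numbers of genes detected, with medians of 3869.5 and 4051.

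*Prdm16* and *Mecom* were read less often in zeugopod cells with *Meox2*, a homeobox gene of muscle progenitors and limb mesenchyme. *Prdm16* was read in 26 of 67 cells with *Meox2* (38.8%) and in 38 of 56 without it (67.9%), and *Mecom* in 43.3% and 71.4%. Both runs had this order for both genes, and for *Shox2* as well. *Prdm16* was read in 43.8% of 73 cells with *Shox2* and in 32 of 50 without it, and *Mecom* in 45.2% and in 36 of 50. The intervals of all zeugopod cells were apart in these comparisons except for *Prdm16* with *Shox2*, and within each run they overlapped. *Itm2a* was read in 77.6% of cells with and 82.1% of cells without *Meox2*, in an order that differed between runs (67.7% and 81.5% in NXT0142, 86.1% and 82.8% in NXT0143).

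**Figure D4:**
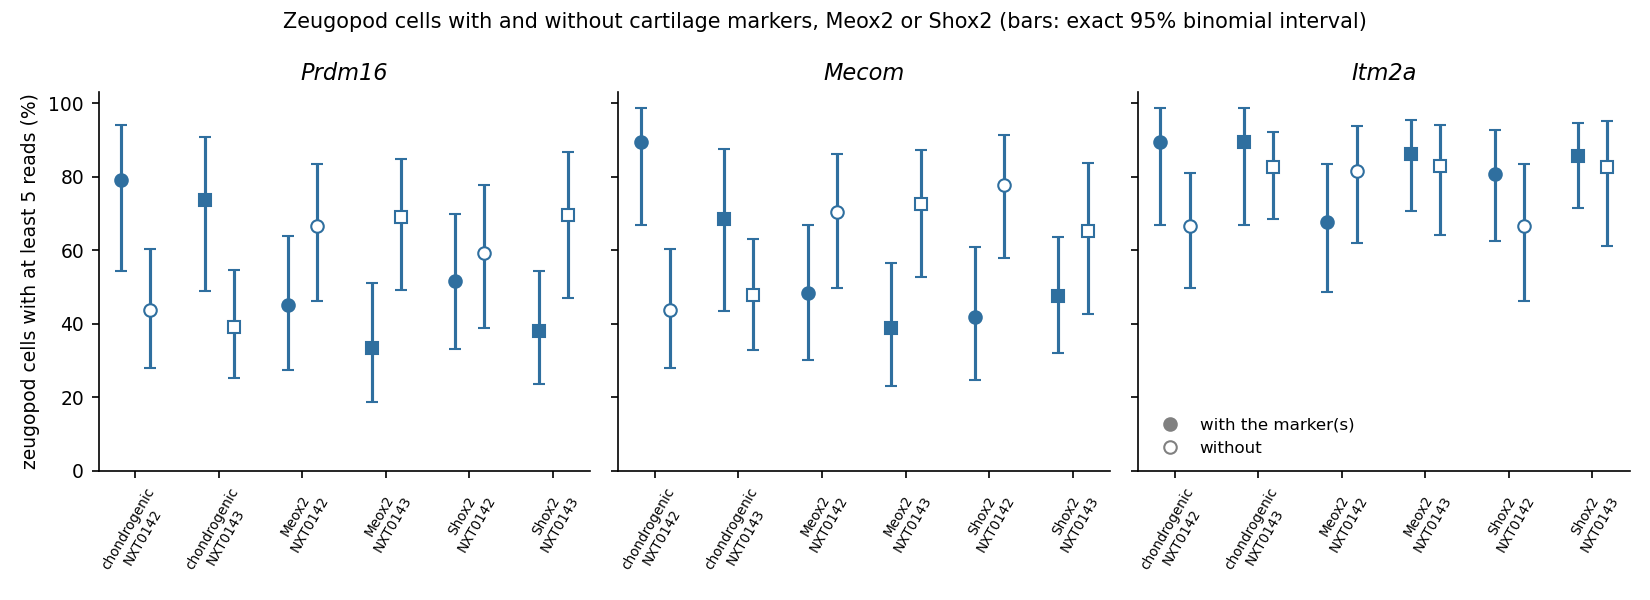
Percent of zeugopod cells with at least 5 reads of each gene, in cells with (filled) and without (open) the cartilage markers, *Meox2* or *Shox2*, in runs NXT0142 (circles) and NXT0143 (squares); bars are exact 95% binomial intervals. *Prdm16* and *Mecom* are higher with cartilage markers and lower with *Meox2* or *Shox2* in both runs, and *Itm2a* is between 66.7% and 89.5% in every group.

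In the autopod *Prdm16* was near its ceiling, and its level carried the variation. Its mean log2 level was 4.45 in 35 chondrogenic cells and 5.61 in the 41 others, with 4.11 and 5.41 in NXT0072 and 5.58 and 6.30 in NXT0143. The chondrogenic cells also had fewer genes detected (median 3390 against 3890), whose part was not tested. Across cells, however, genes of that definition ranked far apart among companions of *Prdm16*. *Sox9* ranked 12 of 3005 and *Col2a1* ranked 2120 (lower run values 0.314 and -0.117). In 17 cells with at least 2 of the interdigit genes *Aldh1a2*, *Msx2* and *Bmp7*, all of which had *Prdm16*, the mean was 6.84, against 4.56 in the 59 others. The interdigit cells were higher in both runs, at 6.91 against 4.34 in NXT0072 and 6.70 against 5.55 in NXT0143. These cells also had more genes detected (median 4504 against 3414), whose part in the difference was not tested. *Itm2a* was read in 16 of 35 chondrogenic autopod cells (45.7%, 28.8 to 63.4) and in 9 of the 41 others (21.95%, 10.6 to 37.6), intervals that overlap. Among Hox genes, *Prdm16* was read in 62 of 65 autopod cells with *Hoxd13* and in 8 of the 11 without it, and in 93.3% of cells with and 90.3% of cells without *Hoxa13*. The *Hoxd13* intervals overlapped (87.1 to 99.04 and 39.03 to 93.98). By run, *Prdm16* was read in 51 of 54 cells with and 2 of 5 without *Hoxd13* in NXT0072. In NXT0143 it was read in 11 of 11 and 6 of 6.

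Companion genes were ranked within each run, allowing for the genes detected, by the lower of the 2 run values. For *Prdm16* in the autopod, over 3005 genes in 59 and 17 cells, the leading genes were *Tgif1* (0.43 and 0.46 in NXT0072 and NXT0143), a homeobox repressor of TGF-beta signalling, then *Mfap4*, *Fth1*, *Mrpl39* and *Ube2r2*. The most opposed were *Por* (-0.30 and -0.49), *Ski* and *Col26a1*. For *Mecom* they were *Clta* (0.48 and 0.63), which encodes a clathrin light chain, then *Rpl23*, *Hmgn1*, *Rab7* and *Srpk1*, with *Rasl11b*, *Kcnmb4* and *Slc1a3* most opposed. For *Itm2a* in the zeugopod, over 3614 genes in 58 and 65 cells, they were *Angptl1* (0.45 and 0.30 in NXT0142 and NXT0143), *Lgr4*, *Klhl9*, *Rbm6* and *Mbtd1*, with *Ppid*, *Dars* and *Sel1l* most opposed. Being the extremes of all these genes, the weak correlations are a description only. Of each 5 leading genes, 1 to 3 stayed among the leading 5 under another setting. *Mecom* ranked 720 of 3005 among companions of *Prdm16* in the autopod.

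Relatives of the 3 genes were set beside them. Of 15 PR domain genes counted, 9 were in the normalized table. *Prdm2*, a histone methyltransferase, was read in 18 autopod and 38 zeugopod cells, with a difference of -0.58 in all cells and 0.48 within NXT0143. Of the 9 BRICHOS genes listed, 7 were counted. *Itm2b*, the gene mutated in familial British dementia, had a difference of -1.58, which was 0.74 within NXT0143, and *Itm2c* a difference of 0.65. The cartilage gene *Cnmd* was read in 7 autopod and 21 zeugopod cells. *Sftpc* and *Bricd5* were not analysed here.

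Of 12 measured partners of PRDM16 and MECOM, 1 was higher in the autopod by at least 1 log2 unit in all cells and both run comparisons, 0 were higher in the zeugopod, beside 1.96% and 3.88% of all genes, and the median difference was 0.23, beside -0.12 over all genes. These medians were 0.19 and 0.18 within NXT0143, and -0.18 and -0.34 between the other runs. The gene higher in the autopod was *Ctbp1*, the corepressor (1.47; 1.01 within NXT0143 and 1.39 between the other runs). *Med1*, a Mediator subunit, had a difference of -2.67 in all cells but 0.07 within NXT0143, and *Kdm1a*, a histone demethylase, 1.32 and -0.41. *Hdac2* also changed sign (0.83 and -0.78), while *Zfp516* did not (0.66 and 1.24). Of 9 brown fat genes listed, 6 were counted and 0 were in the normalized table. *Ucp1*, *Fabp4* and *Dio2* had at least 5 reads in no cell of either tissue, *Cebpa* in 0 autopod cells and 1 zeugopod cell, *Pparg* in 2 and 1, and *Ppargc1a* in 5 and 10. These genes were named after their values were seen. A count of 0 allows up to 3.95% of autopod and 2.44% of zeugopod cells with 5 reads (exact intervals reach 4.74% and 2.95%). *Cidea*, *Elovl3* and *Adipoq* were not analysed here.

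Some matrix genes were higher in the zeugopod, like *Itm2a*. Of 9 measured connective tissue genes, 6 were higher in the zeugopod by the rule above and 0 in the autopod, beside 3.88% and 1.96% of all genes, and the median difference was -2.49, beside -0.12. Of the 6, however, *Dcn*, *Lum* and *Col6a1*, the last named after its values were seen, counted as measured through the zeugopod alone. They had 5 reads in 1, 1 and 4 autopod cells and in 36, 44 and 35 zeugopod cells. The count and the median therefore lean on genes let in for being read there, and nothing is read from them. *Col1a1*, *Col1a2* and *Col3a1* passed in both tissues. *Col1a1* differed by -4.39, *Col3a1* by -3.88 and *Lum* by -3.32, then *Col1a2* by -2.58 and *Dcn* by -2.49. Of 5 measured cartilage genes, 2 were higher in the autopod, beside the same 1.96%: *Sox9*, the regulator of cartilage fate (3.14), and *Col9a1* (2.29). *Col2a1* had a difference of -1.54 that was 0.80 within NXT0143, and *Sox5* and *Sox6* had 0.88 and 0.69, with 2.24 and 2.38 within NXT0143 and 0.33 and 0.38 between the other runs. Across zeugopod cells, however, the adjusted rho of *Itm2a*, the lower of the run values, was 0.00793 with *Col1a1* and -0.0455 with *Col3a1*. By the same measure it was 0.153 with *Sox9*, 0.112 with *Prdm16* and 0.107 with *Col2a1*, all weak.

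**Figure D5:**
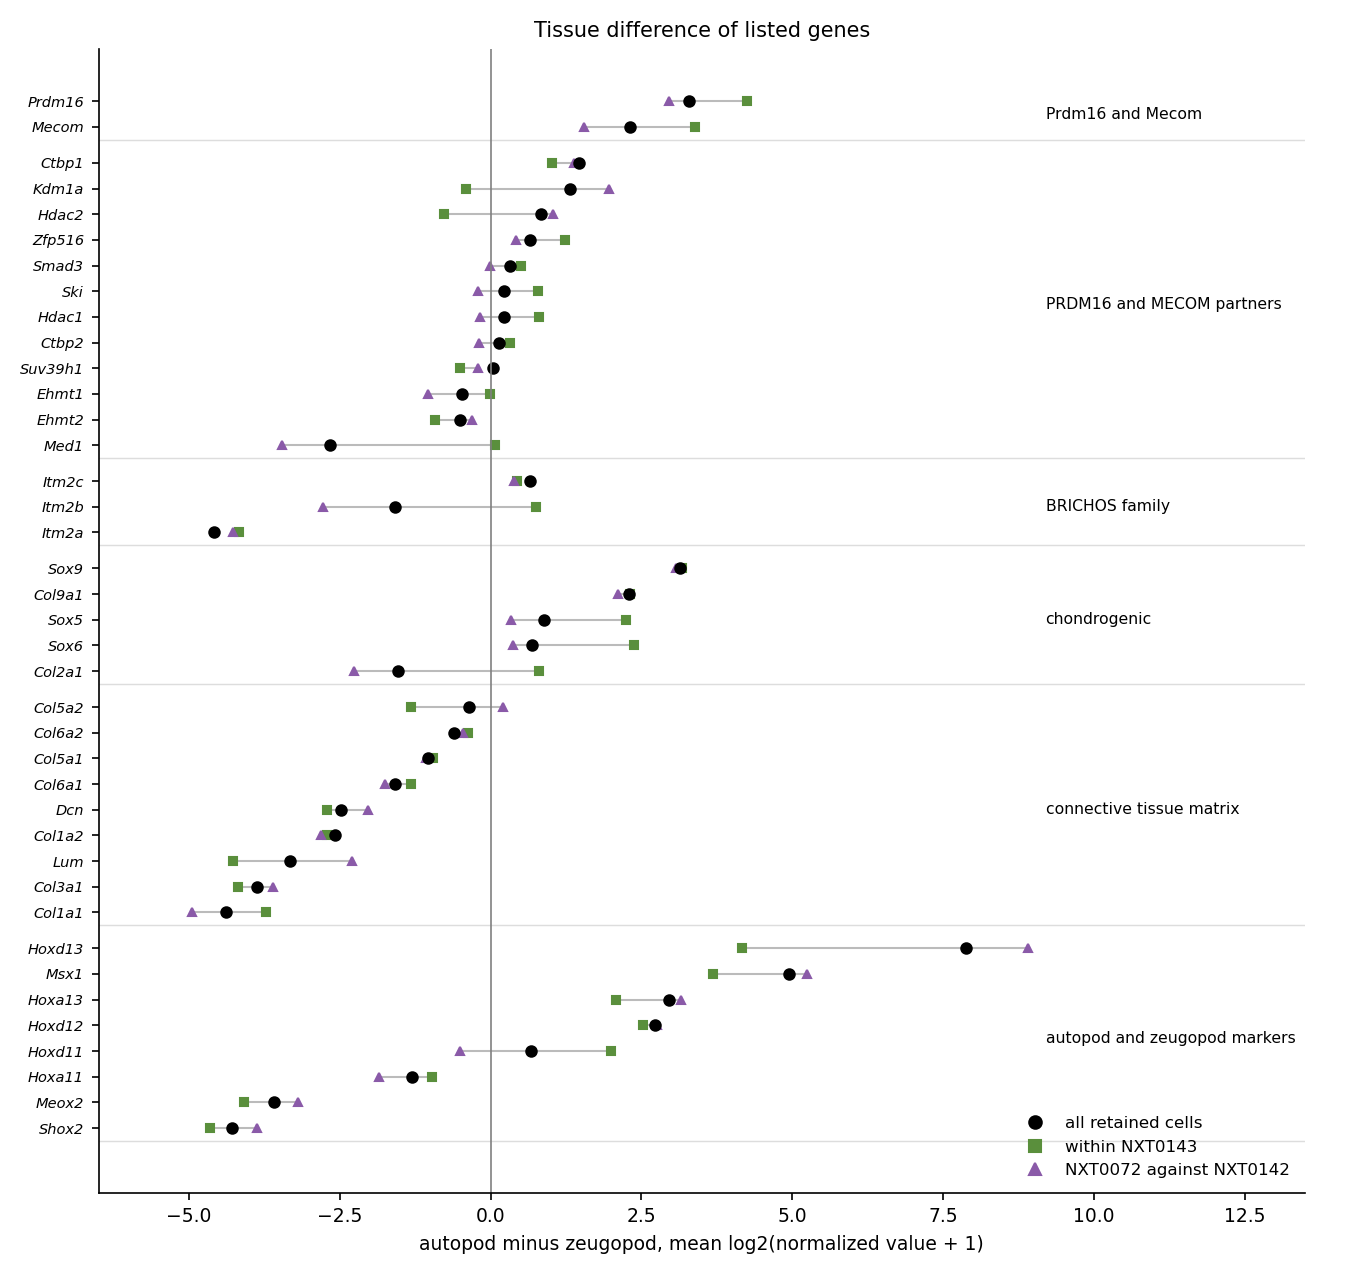
Difference of autopod minus zeugopod in mean log2(normalized value + 1) for *Prdm16*, *Mecom* and the measured genes of the other lists, over all retained cells (circles), within NXT0143 (squares) and between NXT0072 and NXT0142 (triangles). *Prdm16*, *Mecom* and *Itm2a* keep their direction in all 3 comparisons, while *Med1*, *Kdm1a*, *Itm2b* and *Col2a1* are among the genes that change sign.

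Markers of other cell types were low in the sorted cells. Of 5 muscle markers, *Myod1*, *Myog* and *Myf5* had no cell with 5 reads in either tissue, and the summed level was 0.772 CPM in the autopod (most abundant *Actc1*) and 0.617 in the zeugopod (*Pax7*). The 4 T cell markers summed to 13.9 and 4.06 CPM, nearly all *Lck*, with *Cd3g* at no cell with 5 reads in either tissue. The 4 endothelial markers summed to 0.0780 and 0.313 CPM, the 3 macrophage markers to 0.205 and 0.741, and the 5 epithelial markers to 2.69 and 45.2, nearly all *Epcam*. Of 4 blood markers only *Hba-x* was counted, at 0.0944 and 0.00252 CPM, and *Hbb-bt*, *Hba-a1* and *Hbb-y* were not analysed here. No cell met the definition of any of these types, which for blood could not be met with a single gene counted.

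The annotation adds a limit. *Prdm16* (ENSMUSG00000039410, chr4:154316125-154636873), *Mecom* (ENSMUSG00000027684, chr3:29951296-30548008) and *Itm2a* (ENSMUSG00000031239, chrX:107397099-107403376) are on the minus strand of GRCm38. *Mecomos* lies antisense within *Mecom* and *B230104I21Rik* antisense within *Prdm16*, and the kit does not mark strand, so overlapping reads cannot be told apart. The reads assigned to them were few, 263 and 2816 for *Mecomos* beside 191270 and 210945 for *Mecom* in autopod and zeugopod. Other annotated genes that overlap *Prdm16* or *Mecom* were not analysed here. No annotated gene overlapped *Itm2a*.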

How the data were processed

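Single cells of micro-dissected, pooled E12.5 forelimbs were captured on the Fluidigm C1, amplified with the SMARTer kit and sequenced after Nextera XT preparation, without molecular identifiers or strand. The count values are whole reads per gene, deposited by the authors after unique mapping with bowtie2 in local mode to mm10 together with the ERCC spike-ins; the version was not given in the sources used here. The signal values deposited by the authors are those counts divided by spike-in size factors from scran, centred within each batch, cut to whole numbers, plus 1, per kilobase of gene length, for 199 retained cells and 10948 genes. The cut is read from the values, and a few cells with 1 to 3 reads of a gene therefore hold its lowest value. Centring makes the mean size factor alike in the 3 runs (1.24 in each, recovered from genes with more than 50 reads).

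The totals of the 92 spike-ins, read under the cell names of the count table, did not follow those size factors (Spearman's rho -0.0723 over 199 cells), while each of the 199 normalized columns was most like the count column of its own name. In a check added after seeing the data, and up to a constant per run, the size factors of all 199 cells equalled, within 0.0237%, the spike-in total of a column of the same tissue, which had the cell's own name for only 2. Any other constant matched at most 9 cells of a run. The size factors went with the genes detected in the cells they scaled (rho -0.565, -0.421 and -0.540 in NXT0072, NXT0142 and NXT0143), and the spike-in totals under the cell names did so less (0.300, -0.133 and -0.0124). The names of the spike-in columns and the cells scaled thus do not line up. Every cell of NXT0142 matched a column named for a zeugopod cell of NXT0143. Most zeugopod cells of NXT0143 matched columns named for NXT0142. A few columns were the nearest match of more than a single cell. How this arose was not tested. The spike-in counts were not used directly, but every normalized value rests on these size factors. Whether each factor belongs to the cell it scaled was not tested, so values on the normalized scale carry this doubt. CPM from reads on genes is given for some results as a scale without spike-ins. The differences of mean log2(CPM + 1), autopod minus zeugopod, were 3.96 for *Prdm16*, 2.81 for *Mecom* and -4.58 for *Itm2a*.

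The members and lists were chosen with earlier results of these data known. Genes were named by rule: the 3 members, list genes past the read minimum (at most 5 per list by size of difference, plus PR domain and BRICHOS relatives), 5 leading and 3 opposed companions of each member, 3 neighbours on each side in the order of differences, and 6 regional genes for co-detection. The promoter motifs were chosen after the windows were seen. A listed gene is not reported here. Groups came from the labels. Differences are of mean log2(normalized value + 1). Shares count cells with at least 5 reads, with Clopper-Pearson 95% intervals. Thinning drew 500000 reads on genes per cell without replacement. Companions are partial Spearman correlations given genes detected. No test was made, no doublet caller was run, and no cell repeated the counts of another. Alternatives covered the scale, pseudocounts of 0.1 and 10, minimums of 1 and 10 reads, runs, thinning, all captured cells, and, chosen after seeing the data, the cell with most reads left out. Analyses used Python 3.11.15, numpy 2.4.6, pandas 2.3.3 and scipy 1.17.1, and the rank correlation and difference steps were tested on simulated data.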

Additional observations from a re-analysis of the deposited data

How the results depend on the processing

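The differences of *Prdm16*, *Mecom* and *Itm2a* kept their direction under each of the 7 alternatives run for each gene. A difference was taken as unmoved when it shifted by less than the SD of its values in both run comparisons, and a share when it stayed in its 95% interval; of 93 alternatives, counts within 1.5 times included, 68 met this and 25 did not. The *Prdm16* difference was 4.32 with a pseudocount of 0.1, 1.84 with 10 and 4.24 within NXT0143. The *Itm2a* difference was -5.15 with a pseudocount of 0.1, -3.32 with 10, -4.17 within NXT0143, -4.28 between the other runs, -4.73 in thinned CPM and -4.92 in CPM over all captured cells. The *Mecom* difference ran from 1.33 to 3.39. Its SD, 1.31, was too wide to tell these apart, beside 0.91 for *Prdm16* and 0.08 for *Itm2a*, and each SD rests on only 2 values that are themselves among the alternatives.

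Among shares, *Prdm16* in the autopod was 100% within NXT0143 and 76.04% over all captured cells, and in the zeugopod 62.6% at 1 read and 30.3% after thinning. *Mecom* in the autopod was 96.1% at 1 read and 72.9% over all captured cells, and *Itm2a* in the autopod 47.1% within NXT0143. *Prdm16* in cycling zeugopod cells was 78.3% at 1 read. Genes higher in the autopod numbered 297 in the comparison of all cells alone; those higher in the zeugopod numbered 655 there and 305 in CPM. The causes were not tested, except that a lower read minimum and a dropped requirement can only add cells or genes. The median correlation of the leading *Prdm16* companions was 0.357, then 0.465 unadjusted, 0.185 in CPM and 0.368 over all cells of the tissue. For *Mecom* these were 0.426, 0.510, 0.309 and 0.408, and for *Itm2a* 0.280, 0.294, 0.294 and 0.300. Leaving out the cell with most reads in each tissue, chosen after seeing the data, changed the folds of pooled CPM from 6.53 to 6.27 for *Prdm16*, from 1.48 to 1.39 for *Mecom* and from 3.11 to 3.48 for *Itm2a*; only the *Mecom* change exceeded the SD of its run folds (0.587, 0.0494 and 2.26). No paired analysis was made, because no test was made and the labels pair no autopod cell with a zeugopod cell. Only 17 retained autopod cells shared a run with zeugopod cells, which limits every comparison of the tissues within a run.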

Other observations

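*Itm2a* lies on the X chromosome and the pooled embryos could be of both sexes. Cells with at least 5 reads of *Xist*, the RNA of the inactive X, had *Itm2a* in 24 of 34 zeugopod cells (70.6%, exact 95% binomial interval 52.5 to 84.9), and cells below it in 74 of 89 (83.1%, 73.7 to 90.2). The intervals overlapped, and the order was the same within NXT0142 (17 of 25 cells and 78.8%) and NXT0143 (77.8% and 85.7%). In the autopod the shares were 26.5% of 34 cells and 38.1% of 42 cells. The part of sex in these shares was not tested.

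Cycling cells, with at least 5 reads of at least 3 of *Mki67*, *Top2a*, *Ccnb1* and *Cdk1*, numbered 18 in the autopod and 23 in the zeugopod. In the autopod their mean log2 *Mecom* level was 6.97, against 5.15 in the 58 others. It was 7.11 against 4.80 in NXT0072, and 5.84 in 2 cells against 6.14 in NXT0143. They also had more genes detected (median 4170.5 against 3402). In the zeugopod the *Mecom* means were 3.40 and 3.23. *Itm2a* was read in 3 of 18 cycling autopod cells (16.7%, 3.58 to 41.4) and in 22 of 58 others (37.9%, 25.5 to 51.6), and in the zeugopod in 78.3% of cycling cells and in 80 of the others.

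Tendon cells, with at least 5 reads of at least 2 of *Scx*, *Tnmd* and *Tnc*, numbered 0 in the autopod and 17 in the zeugopod. *Itm2a* was read in 13 of these 17 (76.5%, 50.1 to 93.2) and in 85 of the other zeugopod cells (80.2%, 71.3 to 87.3), and *Prdm16* in 8 of 17 (47.1%) and in 56 of the others (52.8%).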
